A study of Mus musculus with 6 samples.

Results

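Nefl, Nefm, Nefh, Ina and Prph, the 5 genes of the neuronal intermediate filaments, were followed through microarray profiles of mouse spinal cord. Members were the probe sets whose platform gene symbol, updated by gene identifier, was 1 of these 5. They were 5 of 18193 genes with a single symbol, and 11 of 45137 probe sets other than controls, on the 2 array types, called A and B here. Array type A carried 10 of them, covering all 5 genes, and array type B carried 1, for Nefl. Total RNA of every pool, 2 of them labelled Egr3-deficient and 1 wild type, was measured once on each array type. The sample titles number the labelled extract of each pool 1 on A and 2 on B, so readings on A and B differ in extract as well as in array type. Every pool combined 3 spinal cords, cut at lumbar segments L3 to L5 at postnatal day 27. The labels do not state the allele, strain or sex. Pool 2 (RNA 500) and the wild-type pool (RNA 499) carry a treatment remark, acclimatization, that pool 1 (RNA 450) lacks. The study's title names spinal fusimotor neurons, the motor neurons of the muscle spindle, as its subject.

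Neuronal intermediate filaments are rope-like polymers that fill the axon and set its calibre. Nefl, the light chain, forms the core of the polymer. Nefm and Nefh, the medium and heavy chains, add long tails that are phosphorylated in the axon and stand out from the filament. Ina encodes alpha-internexin, a partner subunit of central neurons, and Prph encodes peripherin, a subunit of motor neurons and of neurons with axons in peripheral nerves. Large motor neurons and proprioceptive sensory axons are rich in the light, medium and heavy chains. The RefSeq gene table of mouse assembly GRCm38.p6 places Nefl and Nefm side by side on chromosome 14, with 0 protein-coding genes between them. Egr3 lies on the same chromosome, and 19 protein-coding genes start between it and Nefm. Nefh is on chromosome 11, Prph on chromosome 15 and Ina on chromosome 19.

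The RefSeq promoter table held Ina and Prph among the members. The stretch of 250 bases before the annotated start is shown for both, because Egr3 belongs to the zinc finger family that binds GC-rich EGR sites, and these windows let such letters be read beside the expression values. Both strands were searched for the EGR motifs GCGTGGGCG and GCGGGGGCG for the TATA box TATAAA and for the GC box GGGCGG, the letters that Sp1-type factors bind. Capitals mark the EGR and TATA matches. Sequences run 5′ to 3′ on the plus strand of GRCm38.p6, from chr19:47014431-47014680 for Ina and chr15:99054924-99055173 for Prph.
Ina promoter: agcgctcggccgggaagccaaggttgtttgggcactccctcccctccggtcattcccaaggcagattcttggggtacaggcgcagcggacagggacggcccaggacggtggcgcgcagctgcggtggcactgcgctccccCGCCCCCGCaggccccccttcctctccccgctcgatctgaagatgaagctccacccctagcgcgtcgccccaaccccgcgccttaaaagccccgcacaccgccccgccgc
Prph promoter: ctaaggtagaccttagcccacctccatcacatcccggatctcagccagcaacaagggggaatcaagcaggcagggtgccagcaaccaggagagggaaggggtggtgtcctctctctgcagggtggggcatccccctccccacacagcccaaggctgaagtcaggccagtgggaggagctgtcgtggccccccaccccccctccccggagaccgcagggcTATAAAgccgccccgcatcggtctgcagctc
The Ina window held GCGGGGGCG on the minus strand, with its far end 110 bases before the start. That match overlapped a GC box on the same strand. A second GC box in the Ina window had its far end 12 bases before the start, and the Prph window held 1 with its far end 24 bases before the start. Among all 32851 promoter windows of this length, 3.06% held either EGR motif and 32.7% held GGGCGG. The Prph window held a TATA box whose far end lay 31 bases before the start, a motif found in 12.4% of all windows. No EGR motif of these letters was in the Prph window. These are matches of letters and show no binding.

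Nefm was the member that stood furthest from wild type, and it was lower in both pools labelled Egr3-deficient. Nefl and Nefh lay close to wild type on array type A. All 3 kept Ina probe sets were above wild type in both pools, by small amounts, and the Prph probe set with a transcript accession was below it in both. None of these differences passed the test. A pool of RNA from whole segments does not separate fewer filament-rich neurons from less filament RNA per neuron.

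Of the 10 member probe sets on A, 7 reached the filter on low values, and so did the 1 on B. That filter kept probe sets whose mean log2 level was at or above the 40th percentile of the array type, equal to an intensity of 36.7 on A and 55.9 on B. The limma test at an adjusted p of 0.05 called 0 of the 7 on A, where it called 0.0663% of all 13576 kept probe sets. It called 0 of 1 on B, where it called 1.63% of 13507. At an unadjusted limma p under 0.05 there was 1 member on A (Nefm) and 1 on B (Nefl). Of all 13576 kept probe sets on A, 1730 were lower and 1077 higher at that level. Of the 13507 on B, 923 were lower and 1000 higher, so such a value was common. Below wild type in both pools were 3 of the 7 members on A, beside 34.8% of all kept probe sets, and above it in both were 3 of 7, beside 47.9%. The Nefl probe set on B was below wild type in both pools, as were 36.6% of kept probe sets there, while 38.9% were above. A difference of 2-fold or more that both pools shared in direction was seen for 0 of 7 members on A and 0 of 1 on B, beside 5.55% and 6.07% of all kept probe sets. The median log2 difference of the 7 kept members on A was -0.098, where that of all kept probe sets was 0.11. It is the value of Nefh, and it turned to 0.095 without quantile normalization, where the median of all was 0.054. The 3 members above wild type in both pools on A were all Ina probe sets. With the probe set of highest mean for each gene, 3 of 5 genes were below wild type in both pools and 1 was above. By probe set the counts were close to the background, and 5 genes are too few to read a departure from it.

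**Figure D1:**
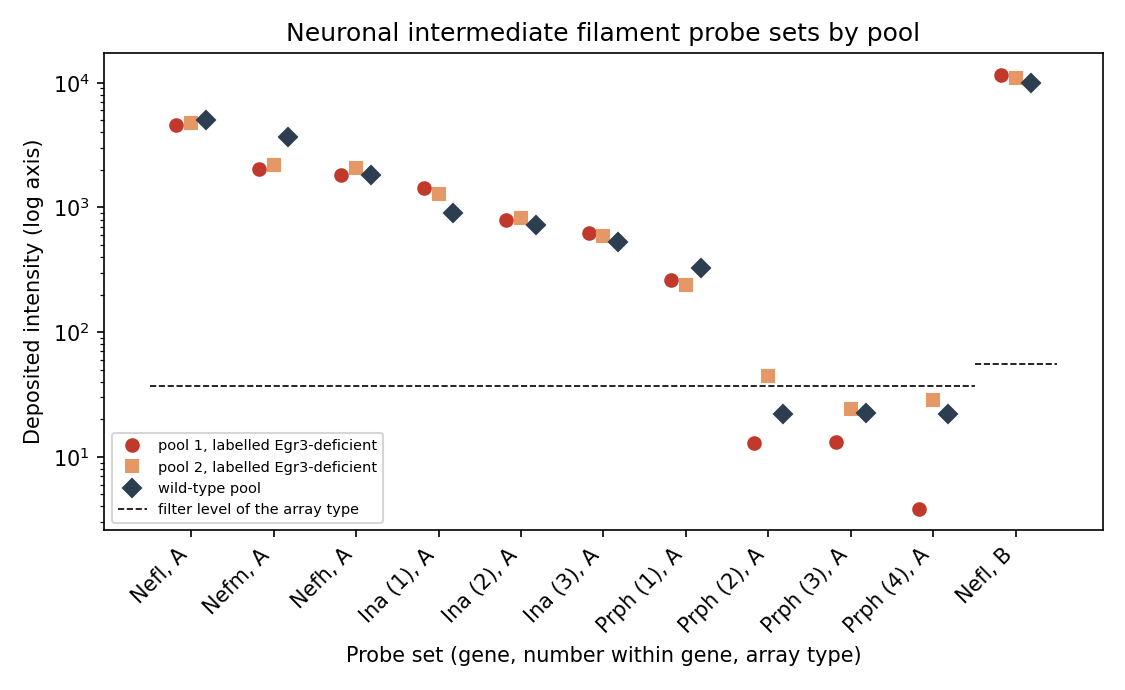
Deposited intensity (log axis) of each member probe set in pool 1, pool 2 and wild type. Each point is 1 array, probe sets of a gene are numbered by mean level, and the dashed line is the filter level; the Nefm pools read 2037 and 2200 below the wild-type 3669, while the points of Nefl, Nefh and the Ina probe sets 2 and 3 lie close together.

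The light chain gene Nefl was measured on both array types. On A its probe set (1426255_at) read 4544 and 4757 in pools 1 and 2, against 5066 in the wild-type pool. Both pools were slightly below wild type, and the 2 pools differed from each other by 0.11 on the log2 scale. The log2 difference was -0.14 (SE 0.16, limma adjusted p = 0.624). The 95% interval ran from -0.52 to 0.23, so a 2-fold decrease lay outside it, given the assumption that the lone wild-type pool varies like the others. Under median centring the difference was -0.0030, with pool 1 at 0.042 and pool 2 at -0.048, so the shared direction on A depends on the scaling.

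On B the Nefl probe set (1454672_at) read 11605 and 10839 in pools 1 and 2, against 10019 in the wild-type pool. As deposited, both pools were above wild type, by factors of 1.16 and 1.08. After quantile normalization they were below it, by -0.66 and -0.40 on the log2 scale. This gave a log2 difference of -0.53 (SE 0.24, limma adjusted p = 0.298). The probe set lay at the 99.96th percentile of mean level on B, the top end of the array, where quantile normalization replaces values by the mean over the arrays. Without that step the difference was 0.16, and under median centring 0.33, so the direction for Nefl on B depends on the scaling.

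The medium chain gene Nefm had 1 probe set, on A (1422520_at). It read 2037 in pool 1 and 2200 in pool 2 against 3669 in wild type. Both pools were thus clearly under the wild-type reading and near each other, at 0.555 and 0.599 of it. The quantile-normalized log2 differences were -1.03 and -0.85, with a mean of -0.94 and an SE of 0.20. The 95% interval was -1.40 to -0.48, the unadjusted limma p was 0.00168 and the adjusted p was 0.161. Over the alternatives run the adjusted p ranged from 0.0751 to 0.336, so it passed under none of them. The difference between the 2 pools was 0.19, smaller than either pool's distance from wild type. Of all kept probe sets on A, 9.52% had a lower mean difference than Nefm, so a value of this size was not rare on this array type. An exact permutation test of 2 pools against 1 has 3 assignments and cannot give a p below 0.333.

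Nefl, its neighbour on the chromosome, was also below wild type in both pools on A, by less, as deposited and after quantile normalization. Under median centring the Nefl pools on A lay on either side of wild type. Set against Nefl on the same arrays and in deposited values, Nefm was lower by -0.69 in pool 1 and -0.65 in pool 2 on the log2 scale, relative to wild type. Set against Nefh in the same way, it was lower by -0.85 and -0.93. These within-array differences do not change when a whole array is multiplied by a factor. They show unequal readings of the probe sets, had no test beyond the single wild-type pool, and cannot show which of the genes differed.

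The heavy chain gene Nefh had 1 probe set, on A (1424847_at). It read 1820 and 2086 in pools 1 and 2, against 1824 in the wild-type pool. Pool 1 matched wild type as deposited, and pool 2 was above it. The log2 difference was -0.098 (SE 0.22, limma adjusted p = 0.821), with pool 1 at -0.24 and pool 2 at 0.045. The sign turned to 0.095 without quantile normalization and 0.21 under median centring, so no direction can be given for Nefh.

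**Figure D2:**
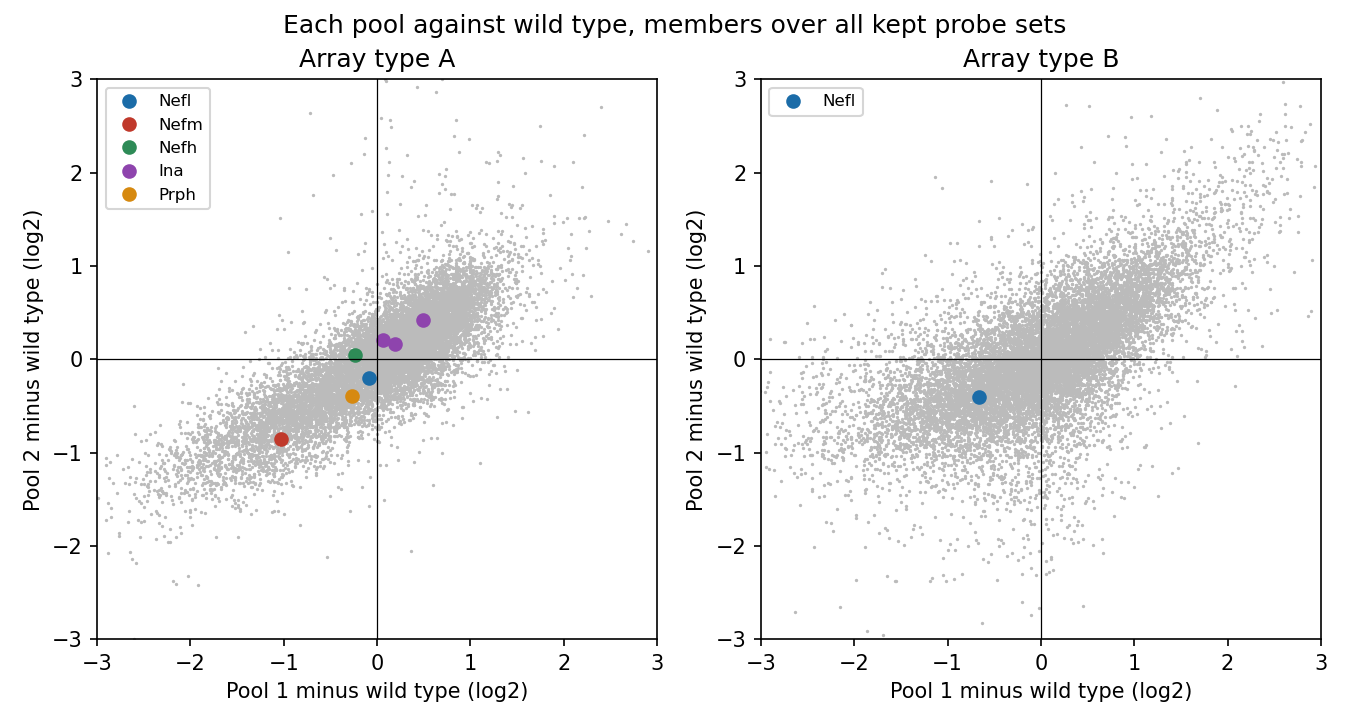
Log2 difference from wild type in pool 1 (horizontal) and pool 2 (vertical), quantile normalized, for all kept probe sets (grey) and the kept members (colour). Both axes share the wild-type pool, and 65 probe sets on A and 49 on B lie outside the plotted range of 3; Nefm lies at -1.03 and -0.85, inside the grey cloud, and the other members on A lie nearer the centre.

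Ina, which encodes alpha-internexin, had 3 probe sets on A, all matched to the same transcript accession. The probe set of highest mean (1448991_a_at) read 1442 and 1292 in pools 1 and 2, against 910 in the wild-type pool. Both pools were above wild type, by factors of 1.58 and 1.42. The log2 difference was 0.46 (SE 0.23, limma adjusted p = 0.296), with a 95% interval from -0.082 to 0.99. The second (1418178_at) read 788 and 827 against 719, a log2 difference of 0.13 (adjusted p = 0.784). The third (1448992_at) read 629 and 594 against 529, a log2 difference of 0.18 (adjusted p = 0.720). All 3 pointed up in both pools, but the first gave a larger difference than the other two. Where each probe set lies along the transcript was not used here. The direction was upward under every scaling run, from 0.13 to 0.70 over the 3 probe sets.

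Peripherin, encoded by Prph, had 4 probe sets on A. The one with a transcript accession (1422530_at) read 262 and 241 in pools 1 and 2, against 325 in the wild-type pool. Both pools were below wild type, at 0.805 and 0.741 of it. The log2 difference was -0.34 (SE 0.30, limma adjusted p = 0.537), with a 95% interval from -1.04 to 0.37. The difference stayed negative under each scaling run, from -0.35 to -0.23.

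The other 3 Prph probe sets carried the symbol without an accession in the platform annotation and did not reach the filter. They read between 3.85 and 13.2 in pool 1, between 24.1 and 44.9 in pool 2 and between 22.0 and 22.5 in wild type. Pool 1 was below wild type and pool 2 above it in all 3, so they gave no common direction and no test. Markers of dorsal root ganglion neurons, another source of peripherin, were dim in the same arrays. Of that list 5 of 10 genes were on A and 1 reached the filter, with summed intensities of 96.2, 71.4 and 174 in pool 1, pool 2 and wild type and no gene listed at 0. The actin-binding sensory marker Avil, below the filter, read 11.2 and 3.07 against 64.5 and made up most of the lower sum. Scn10a (6.71 and 9.39 against 29.4) and Scn11a (25.5 and 11.8 against 37.5) were also below the filter and below wild type in both pools. P2rx3, under the filter on both array types, read 1.96 and 4.05 against 2.91 on A and 21.4 and 5.66 against 93.5 on B. The 1 kept gene, Tlx3, a transcription factor, read 50.8 and 43.0 against 39.5, above wild type in both pools. On B the kept genes Pou4f1 and Trpv1 differed by 0.26 and -0.0082, with the pools on either side of wild type. The part of these cells in the Prph reading was not tested.

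**Figure D3:**
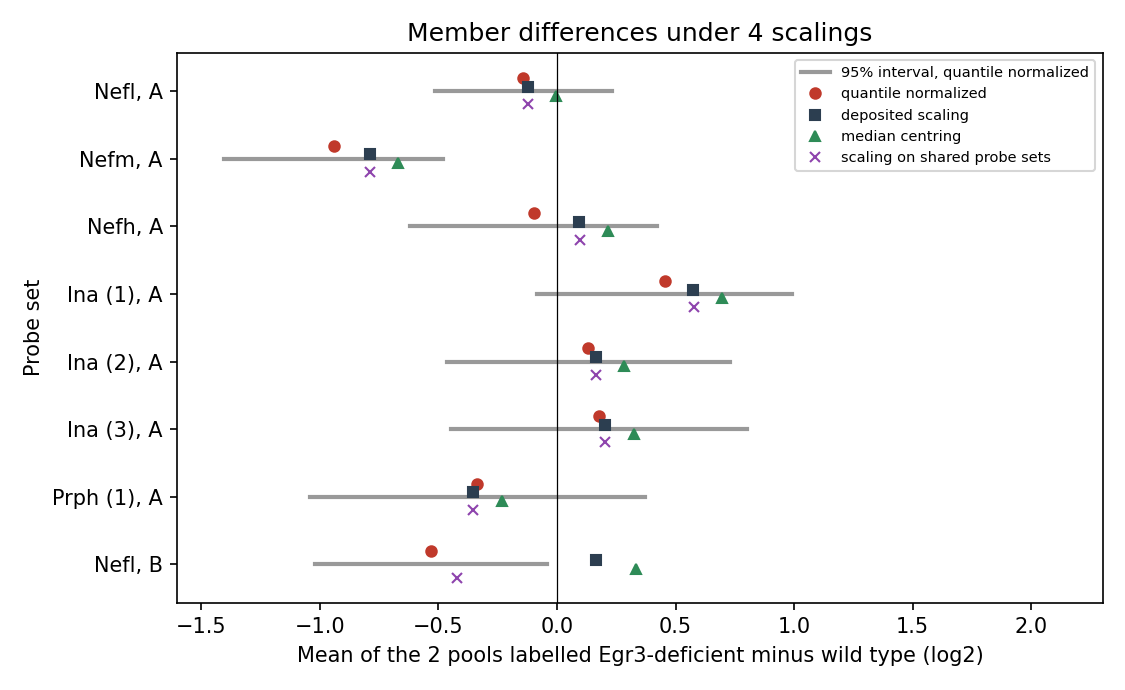
Mean log2 difference of the pools labelled Egr3-deficient from wild type for each kept member probe set under 4 scalings, with the 95% limma interval of the quantile-normalized value as a bar. Nefm is negative (-0.94 to -0.67) and the 3 Ina probe sets are positive under all 4, while Nefh on A and Nefl on B change sign.

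The 2 pools labelled Egr3-deficient were also set against each other for the kept members on A. The absolute log2 difference between the pools ran from 0.034 (the third Ina probe set) to 0.29 (Nefh), beside a median of 0.26 over all kept probe sets. All kept members on A were above the 84th percentile of mean level, and no comparison with probe sets of like level was made. On B the Nefl pools differed by 0.27, beside a median of 0.38. The wild-type pool had no such partner, so its own spread was not measured. By a rule of nearness in the pair of differences, over 3 arrays, the genes most like Nefm on A were Akap12, Ice2 and Stard4, at distances of 0.0016, 0.0092 and 0.013. In all 81 probe sets, Nefm itself included, lay within 0.1 of it. Those nearest Nefl were Plekha2, Prg4 and Asb13 on A and Arhgap26, 9230102K24Rik and Specc1 on B, and those nearest Nefh were Fmo1, Gfra1 and Ikbkg. With 248 and 173 probe sets within 0.1 of Nefl and Nefh on A, such likeness is common here.

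The other intermediate filament genes gave 1 call. Of 10 listed, 9 were on A and 7 were kept, with 4 above wild type in both pools, 1 below and 0 called, and the median log2 difference was 0.11. Gfap, the astrocyte filament gene, read 2843 and 2442 against 1907 on A (log2 difference 0.28, limma adjusted p = 0.446). Krt8, an epithelial keratin gene, read 37.9 and 106 against 26.9 (1.03, adjusted p = 0.258), and Des, the muscle filament gene desmin, 36.5 and 37.6 against 49.7. On B 3 were kept and 1 was called. Lmna, which encodes the nuclear lamins A and C, read 240 and 215 against 45.5 there and rose by 2.14 on the log2 scale (SE 0.48, adjusted p = 0.0110). Its probe set on A read 188 and 165 against 108 and did not pass (0.72, adjusted p = 0.258). The call on B held under 6 of 10 other settings, and the adjusted p reached 0.455 with no filter.

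Linkers and motors that handle filaments included several of the lower readings. All 4 linker genes were kept on A, with 3 below wild type in both pools, 0 called and a median of -1.06. Dst, the cytoskeletal linker dystonin, read 133 and 231 against 520 (log2 difference -1.46, limma adjusted p = 0.161). Map1b and Macf1, which bind microtubules, differed by -0.999 and -1.13, and Plec, the linker plectin, by 0.30. On B Macf1 was the 1 linker kept, at -1.20 (adjusted p = 0.259). Of the transport motors 9 were kept on A, with 4 above and 5 below wild type in both pools, 0 called and a median of -0.29.

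Kinesin heavy chain genes, whose products carry neurofilaments along the axon, lay on the lower side on A. Kif5b read 154 and 578 against 1136 (log2 difference -1.91, limma adjusted p = 0.179) and Kif5a 110 and 98.3 against 221 (-0.92, adjusted p = 0.195). Dync1i1, a dynein intermediate chain gene, read 723 and 687 against 376 (0.88, adjusted p = 0.172). Kif5c read 71.2 and 187 against 349 on A (-1.40, adjusted p = 0.189). On B, where 4 motors were kept and all 4 were below wild type in both pools, Kif5c read 2494 and 3763 against 5397 and fell by 1.37 (SE 0.32, adjusted p = 0.0145). That call held under 5 of 10 other settings and was lost under median centring (-0.64, adjusted p = 0.807). Kif5a on B read 7675 and 6258 against 5243 as deposited, above wild type, but -0.21 after quantile normalization (adjusted p = 0.814).

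**Figure D4:**
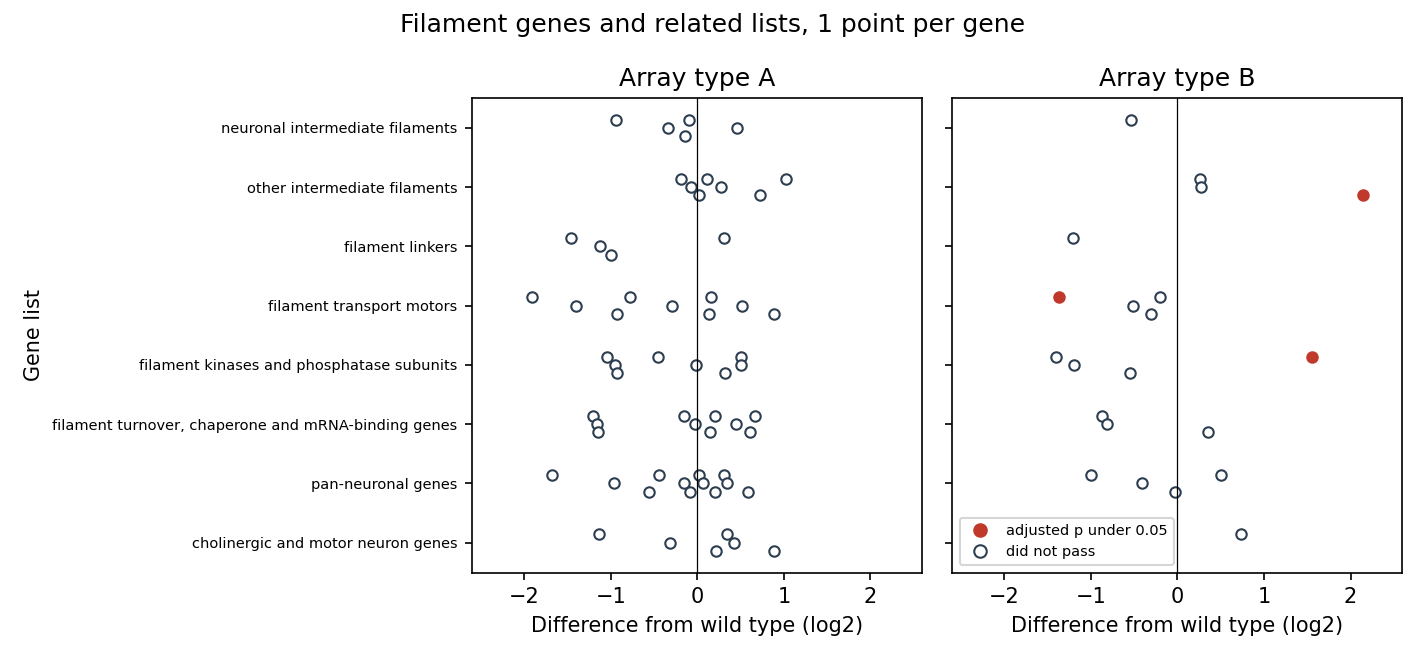
Log2 difference from wild type of every kept gene of the member list and of 7 related lists, using the probe set of highest mean per gene, on array type A (left) and B (right). Filled points passed the adjusted p threshold of 0.05; the 5 member genes on A run from -0.94 to 0.46, and the 3 filled points, on B, are Lmna, Kif5c and Camk2a.

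Kinase and phosphatase genes that act on filament tails split in direction. On A 8 were kept, with 3 above and 4 below wild type in both pools, 0 called and a median of -0.24. Cdk5, a kinase of neurofilament tails, read 694 and 725 against 488 (log2 difference 0.50, limma adjusted p = 0.312). The kinase genes Gsk3b, Mapk8 and Rock1 differed by -0.95, -0.93 and -1.04. On B 4 were kept, with 1 above and 3 below wild type in both pools, 1 called and a median of -0.87. Camk2a, a calcium-dependent kinase gene, read 1600 and 1296 against 432 and rose by 1.55 (SE 0.39, adjusted p = 0.0268), and held under 5 of 10 other settings. A second, dimmer Camk2a probe set on B rose by 2.68 (limma adjusted p = 6.76e-04), and held under 6 of 10 other settings, with an adjusted p of 0.455 with no filter. On A the Camk2a probe set of highest mean was below the filter. It read 1.08 and 5.55 against 2.00, with the pools on either side of wild type.

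Genes of filament turnover, protection and mRNA binding showed the same mixture. On A 10 were kept, with 4 above and 4 below wild type in both pools, 0 called and a median of 0.063. Tardbp, whose product TDP-43 binds neurofilament mRNA, read 106 and 120 against 279 (log2 difference -1.15, limma adjusted p = 0.161). Trim2, a ubiquitin ligase gene that acts on the light chain, read 345 and 520 against 953 (-1.21, adjusted p = 0.161), and Elavl4, a neuronal RNA-binding protein gene, 95.7 and 137 against 283 (-1.14, adjusted p = 0.168). Hspb1, a small heat shock protein gene, read 804 and 850 against 508 (0.66, adjusted p = 0.220). On B 3 were kept with 0 called, where Tardbp differed by -0.82, Trim2 by -0.87 and Sod1, superoxide dismutase, by 0.35.

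Neuronal markers placed the filament readings in the tissue. All 12 pan-neuronal genes were kept on A, with 5 above and 5 below wild type in both pools, 0 called, a median of -0.035 and summed intensities of 12019, 12965 and 13881 in pool 1, pool 2 and wild type. Snap25, a synaptic vesicle fusion gene, read 2172 and 3140 against 4838 (log2 difference -0.96, limma adjusted p = 0.161), and Map2 differed by -1.68. On B 4 pan-neuronal genes were kept, with 1 above and 2 below, 0 called and sums of 10354, 12453 and 10613. There Snap25 read 182 and 318 against 176 (0.51, adjusted p = 0.692), opposite in direction to its probe set on A, and Map2 differed by -0.999 (adjusted p = 0.0945). On A the synaptic vesicle gene Syp read 690 and 619 against 426 (0.58, limma adjusted p = 0.268). Of the cholinergic and motor neuron genes 6 of the 10 on A were kept, with 3 above and 2 below, 0 called and a median of 0.28. Ache, acetylcholinesterase, read 424 and 332 against 201, and Chodl, a fast motor neuron marker, 85.3 and 174 against 299. The sign of the pan-neuronal median turned to 0.11 under median centring.

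Features of the pools outside the filament genes are given for scale. Egr3 was not lower in both pools on either array type. It read 24.9 and 52.7 against 40.6 on A and 210 and 107 against 75.3 on B. With filter levels of 36.7 and 55.9, the wild-type readings were dim and left little room to see a fall. These readings therefore cannot check the labels, which rest on the submitters' words. The Egr3 log2 differences were 0.013 on A (limma adjusted p = 0.986), with the pools on either side of wild type, and 1.03 on B (adjusted p = 0.348). All 11 skeletal muscle genes on A were above wild type in both pools (summed intensity 5594 and 6914 against 997). Of these, 7 were called (limma adjusted p under 0.05), among 9 probe sets called on A in all. Most of the wild-type sum came from Pvalb, which read 1354 and 1487 against 848 and was not called. The next highest wild-type reading in that list was Acta1, at 1096 and 1205 against 39.7, so the sums understate the difference of the other muscle genes. With no filter 0 probe sets were called on A. Liver genes summed to 257 and 8747 against 121. Schwann cell and nerve root genes summed to 9056, 12280 and 10431 on A, and oligodendrocyte and myelin genes to 26130, 32315 and 39071. The sums for astrocyte genes were 10873, 11499 and 12912, for microglia genes 2336, 2179 and 1890, for endothelial genes 1879, 1336 and 1279, and for red blood cell genes 319, 162 and 124. On B the order of the myelin sums was the other way, at 17705, 13857 and 11962, and the astrocyte sums were 4363, 8510 and 9181. Glial calls there were Ermn, a myelin gene, and the astrocyte genes Aqp4 and Slc1a2, which fell, with log2 differences of -1.72, -1.84 and -1.18 (limma adjusted p = 0.00988, 0.0115 and 0.0403). With no filter 0 probe sets were called on B, so these calls were lost too. The ratio of 3' to 5' signal was 0.858, 0.975 and 0.734 for the Gapdh control and 1.37, 1.48 and 1.36 for actin, in pool 1, pool 2 and wild type on A, while that of 18S ribosomal RNA was 2.27, 1.08 and 0.0493. For the pyruvate carboxylase control the ratio was higher in both pools than in wild type, at 4.20 and 3.80 against 2.42 on A and 5.82 and 4.02 against 3.85 on B, and for the transferrin receptor it was 1.55 and 2.29 against 1.56 on A. The part of muscle, liver, other cell types or RNA quality in the member readings was not tested.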

How the data were processed

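Mouse lumbar spinal cord RNA pools were measured on 2 array types. Linear intensities were deposited, with a single value for each probe set on each array. The values share a scale (trimmed mean near 149), and the labels name no summarising software. Control probe sets (64 per array type) were left out. Platform symbols were updated by gene identifier through the RefSeq table of GRCm38.p6, and all 5 member genes matched. Per array type, log2(intensity + 16) was quantile normalized and filtered at the 40th percentile of the mean. They were tested with limma 3.58.1 in R 4.3.3 (lmFit and trended eBayes), and p values were adjusted by Benjamini-Hochberg over all kept probe sets. Log2 differences are on this scale, which understates changes of dim genes. With 1 residual degree of freedom, the spread rests on the difference between pools 1 and 2 and on a prior across probe sets (6.54 degrees of freedom on A, 52.3 on B). The script was tested on simulated data. The number of arrays limits the precision.

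Members and lists were chosen with earlier results of these data known. Named genes were every member probe set, Egr3, up to 4 genes of each filament-related and neuronal list (called first, then the largest smaller-of-2 difference), and the 3 nearest patterns; the sensory, glial, vascular, muscle, liver and blood lists served as markers and are given as sums where a result touches them. The second Camk2a probe set on B and the one on A were named after their values were seen.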

Additional observations from a re-analysis of the deposited data

How the results depend on the processing

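No member probe set passed the threshold on A or B under the main or any other setting run, which were pseudocounts of 1 and 64, median centring, no quantile normalization, the 60th percentile filter, no filter, robust eBayes, no trend, joint adjustment of both array types, gene means, and scaling on the 100 probe sets shared by the array types (added after seeing the data). Leaving out a pool gives values without a test. The median over all 10 member probe sets on A was -0.096, and its sign was not stable: it was 0.11 under median centring, and with either pool left out it ran from -0.24 to 0.11. These moves were smaller than the spread between the pools. For the values with a pool left out that outcome was nearly fixed in advance, because the same medians give the spread. The median on B, where Nefl is the single member, was -0.53, turning to 0.16 without quantile normalization and 0.33 under median centring. Nefh, at -0.098, turned to 0.095 without quantile normalization, 0.21 under median centring and 0.095 on shared scaling, and ran from -0.24 to 0.045 with either pool left out. Nefm kept its sign throughout. Calls over all probe sets varied far more: on A 9 higher and 0 lower, against 227 and 597 under median centring, 18 and 8 with gene means, 17 and 9 with joint adjustment, 2 and 0 on shared scaling and 0 and 0 with no filter. On B they were 138 higher and 82 lower, against 119 and 22 under median centring, 180 and 195 with the 60th percentile filter, 168 and 181 at a pseudocount of 64, 201 and 170 with robust eBayes, 80 and 41 with joint adjustment, 69 and 20 with gene means, 2 and 0 without quantile normalization and 0 and 0 on shared scaling, with no filter or without trend. Shared scaling moved the median of all kept probe sets on B to -0.62. With 1 wild-type pool, the spread within wild type is unknown.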
